A study of Mus musculus with 8 samples.

Results

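The proteasome genes of the mouse were followed in ribosome-associated mRNA from spinal cord. Members were all protein-coding genes whose symbol starts with Psma, Psmb, Psmc, Psmd, Psme, Psmf or Psmg followed by a number, with pseudogenes left out. The rule found 50 of the 38924 gene identifiers in the tables. One of these names, Psmc3ip, belongs to a factor of meiotic recombination and not to the proteasome, so 49 members encode subunits, activators, an inhibitor or assembly factors. Of the 50 members, 47 passed the filter on low counts and were tested. Psmb8, Psmb9 and Psma8 did not pass it.

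All mice carried the RiboTag allele of Rpl22 (labelled Rpl22 +/-) on a B6.CgxB6.129 background and, per the series' design text, were Gars+/+. After Cre recombination the allele yields an HA-tagged protein of the large ribosomal subunit, and an antibody against HA was used to pull down tagged ribosomes from whole spinal cord. The 4 groups had 2 mice each. With Cre and a unilateral sciatic nerve crush there were animals 35 (18 weeks old) and 52 (9 weeks). With Cre and no crush there were animals 10 and 3 (8 weeks). Without Cre and with crush there were animals 51 and 58 (9 weeks), and without Cre and without crush animals 4 and 6 (8 weeks). The Cre mice carry a Chat driver (Chat +/-), which is active in cholinergic cells, and so not only in motor neurons. For a pair of uncrushed mice the labels contradict each other: animal 3, titled as Cre, is entered as Chat +/+, and animal 4, titled as control, as Chat +/-. Groups follow the titles. The summed level of 10 motor neuron markers was 2585 CPM (counts scaled to a common library total) in Cre uncrushed animal 3 and 215 CPM in no-Cre uncrushed animal 4, beside 2115 to 2433 CPM in the other Cre and 126 to 211 CPM in the other no-Cre libraries, so both libraries went with their titles. How long after crush the cords were taken was not stated in the labels. Crush cannot be told apart from age, or from a number that the titles of all uncrushed libraries share.

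The proteasome is the protease that degrades proteins marked with ubiquitin. Its barrel-shaped core, the 20S particle, is built of outer alpha rings and inner beta rings, and only 3 of the beta subunits (Psmb5, Psmb6 and Psmb7) are proteolytically active. The 19S cap sits on the barrel, binds ubiquitin chains, removes them and unfolds the substrate with a ring of ATPases. In immune cells and under interferon, Psmb8, Psmb9 and Psmb10 replace the active subunits to form the immunoproteasome. Nfe2l1, a transcription factor, is known to raise transcription of core and cap genes together through antioxidant response elements, and neurons depend on the proteasome for protein turnover in the cell body and at synapses.

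Promoter sequence is shown for Psmb5 and Psmb6 (constitutive catalytic), Psmc6 (cap ATPase) and Psmb8 (immunoproteasome). The first 3 were picked because they were higher with Cre and carry the core of that element, TGACNNNGC. Psmb8 was picked because it stayed below the filter. No link between the motif and levels with Cre is read from this choice, since it lay in 11.9% of members and 10.2% of all windows. The window of Psmb10, called higher over all 8 libraries, holds no match to TGACNNNGC or TTCCGG. Each stretch is the 250 bases before the annotated start, from RefSeq on GRCm38.p6, 5′ to 3′ on the gene's strand. Capitals mark matches, on either strand, to TGACNNNGC or to the ETS core TTCCGG. The stretches lie at chr14:54617996-54618245 (minus strand), chr11:70525107-70525356 (plus), chr14:45329574-45329823 (plus) and chr17:34197945-34198194 (plus).

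Psmb5: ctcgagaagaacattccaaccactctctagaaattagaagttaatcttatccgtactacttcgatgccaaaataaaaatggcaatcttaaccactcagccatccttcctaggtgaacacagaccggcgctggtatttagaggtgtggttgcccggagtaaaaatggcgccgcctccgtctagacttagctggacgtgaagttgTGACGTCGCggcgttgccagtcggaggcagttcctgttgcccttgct
Psmb6: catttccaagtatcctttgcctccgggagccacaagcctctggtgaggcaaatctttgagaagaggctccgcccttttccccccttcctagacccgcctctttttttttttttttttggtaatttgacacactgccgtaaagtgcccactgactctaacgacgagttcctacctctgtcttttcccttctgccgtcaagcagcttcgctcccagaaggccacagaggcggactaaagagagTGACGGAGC
Psmc6: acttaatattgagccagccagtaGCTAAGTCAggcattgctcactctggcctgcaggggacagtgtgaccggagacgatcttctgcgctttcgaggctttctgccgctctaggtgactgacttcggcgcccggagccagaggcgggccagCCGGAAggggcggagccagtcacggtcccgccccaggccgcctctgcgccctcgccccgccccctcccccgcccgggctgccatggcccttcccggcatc
Psmb8: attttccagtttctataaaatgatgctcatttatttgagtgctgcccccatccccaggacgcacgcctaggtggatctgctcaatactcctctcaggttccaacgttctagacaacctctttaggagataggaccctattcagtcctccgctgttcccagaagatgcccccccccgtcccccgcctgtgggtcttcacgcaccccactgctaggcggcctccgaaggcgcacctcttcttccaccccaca

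Windows were found for 42 of the 50 members. TGACNNNGC lay in 5 of the 42 (11.9%: Psmb5, Psmb6, Psmc6, Psmd12 and Psmd9) and in 10.2% of all 32851 promoter windows of that length. TTCCGG lay in 18 of the 42 members (42.9%), among them Psma5, Psmc6 and Psmd6, and in 12% of all windows. The GC box GGGCGG lay in 22 members (52.4%) against 32.7% of all windows, and CCAAT in 15 (35.7%) against 33.8%. The core of the interferon-stimulated response element lay in 3 members (7.1%: Psmb3, Psmd4 and Psmd9) against 3% of all windows. The palindrome TTCNNNGAA lay in 2 members (4.8%, Psmb8 and Psmg1) against 7% of all windows. The NF-kappaB site lay in 0 members against 0.1% of all windows. Both strands were read, and matches of different motifs may overlap. Members were counted as genes and the background as single windows, so the shares are in unlike units where a gene has several windows. These 7 motifs were kept from a longer set that was looked at, and a match is a description of letters, not a site of binding.

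With Cre, the proteasome mRNAs were higher as a set in both crushed and uncrushed cords. In uncrushed cords 35 of the 47 members tested were higher with Cre and 0 lower, where the calls took 20.6% (higher) and 21.9% (lower) of all 15208 genes tested. In crushed cords 36 were higher and 0 lower, against 21.6% and 21.3% of all genes. At an unadjusted p under 0.05, 1 member was lower in uncrushed cords (Psme1) and 0 in crushed cords, and DESeq2 also called 0 lower in each. The median log2 fold change of the members was 1.46 in uncrushed and 1.39 in crushed cords, against -0.03 and -0.08 over all genes tested. All 35 members called in uncrushed cords were also called in crushed cords (100% of the uncrushed and 97.2% of the crushed calls), and the additional call in crushed cords was Psmf1. In a fit of Cre with crush as a second term over the 8 libraries, 40 members were higher and 1 lower with Cre, against 28.7% and 31.2% of all genes. Without uncrushed animals 3 and 4, whose labels contradict each other, 27 members (12 core and 13 cap subunits) were higher and 0 lower in uncrushed cords, and 40 were higher and 0 lower over the remaining libraries. All calls are from edgeR's quasi-likelihood test at a Benjamini-Hochberg adjusted p of 0.05 over all genes tested.

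Summed over the members, levels were 3454 and 2942 CPM in the Cre crushed and 3338 and 3223 CPM in the Cre uncrushed libraries, against 1056 and 1311 CPM in the no-Cre crushed and 1314 and 1275 CPM in the no-Cre uncrushed libraries. The arms did not overlap. Gene by gene, all 4 Cre libraries lay above all 4 no-Cre libraries for 39 of the 47 members tested (83.0%) and for 25.7% of all genes, and below them for 0 members and 25.3% of all genes. Tagged ribosomes require Cre, so the no-Cre libraries are the untagged background of the precipitation. A level called higher with Cre is therefore a level relative to that background, not a change within a cell type. Whether the difference reflects more cells of a type or more RNA per cell cannot be told apart in precipitates of whole cord.

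Several other measures moved with Cre in the same libraries. Totals were 8215001 to 11522677 expected counts with Cre and 4826935 to 6468050 without. Mitochondrial rRNA took 1.61 to 5.53% of counts with Cre, against 11.47 to 48.2% without. The 10 motor neuron markers, which include Chat, the enzyme that makes acetylcholine, summed to 2115 to 2585 CPM with Cre and 126 to 215 CPM without, and all 10 were called higher over the 8 libraries. The 8 oligodendrocyte markers summed to 718 to 1850 CPM with Cre and 4680 to 7894 CPM without, the 8 astrocyte markers to 602 to 777 CPM and 1784 to 3194 CPM, and the 12 microglia and macrophage markers to 25.1 to 37.6 CPM and 140 to 231 CPM. Of the 8 astrocyte markers, 7 were called lower with Cre over the 8 libraries and 1 was called higher (log2 fold change 0.73). The 8 endothelial markers summed to 10.1 to 27.9 CPM with Cre and 90.9 to 149 CPM without, the 6 meningeal fibroblast markers to 35.2 to 46.3 CPM and 168 to 190 CPM, and the 5 erythrocyte markers to 84.4 to 117 CPM and 209 to 1353 CPM. The 6 interneuron markers summed to 180 to 269 CPM with Cre and 464 to 656 CPM without. The sum of the 6 sensory neuron markers ran the other way, with 212 to 440 CPM with Cre and 9.89 to 49.4 CPM without. Nearly all of it with Cre was Calca, which motor neurons also express. Only 3 of the 6 passed the filter. Over the 8 libraries 1 of these was called higher, and the other 2 had negative log2 fold changes (-1.98 and -2.06) and were not called. The 5 Schwann cell markers (292 to 463 CPM with Cre and 327 to 761 CPM without) and the 8 lymphocyte markers (at most 3.89 CPM with Cre and 5.33 CPM without) overlapped between the arms. The part of each of these in the proteasome result was not tested.

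**Figure D1:**
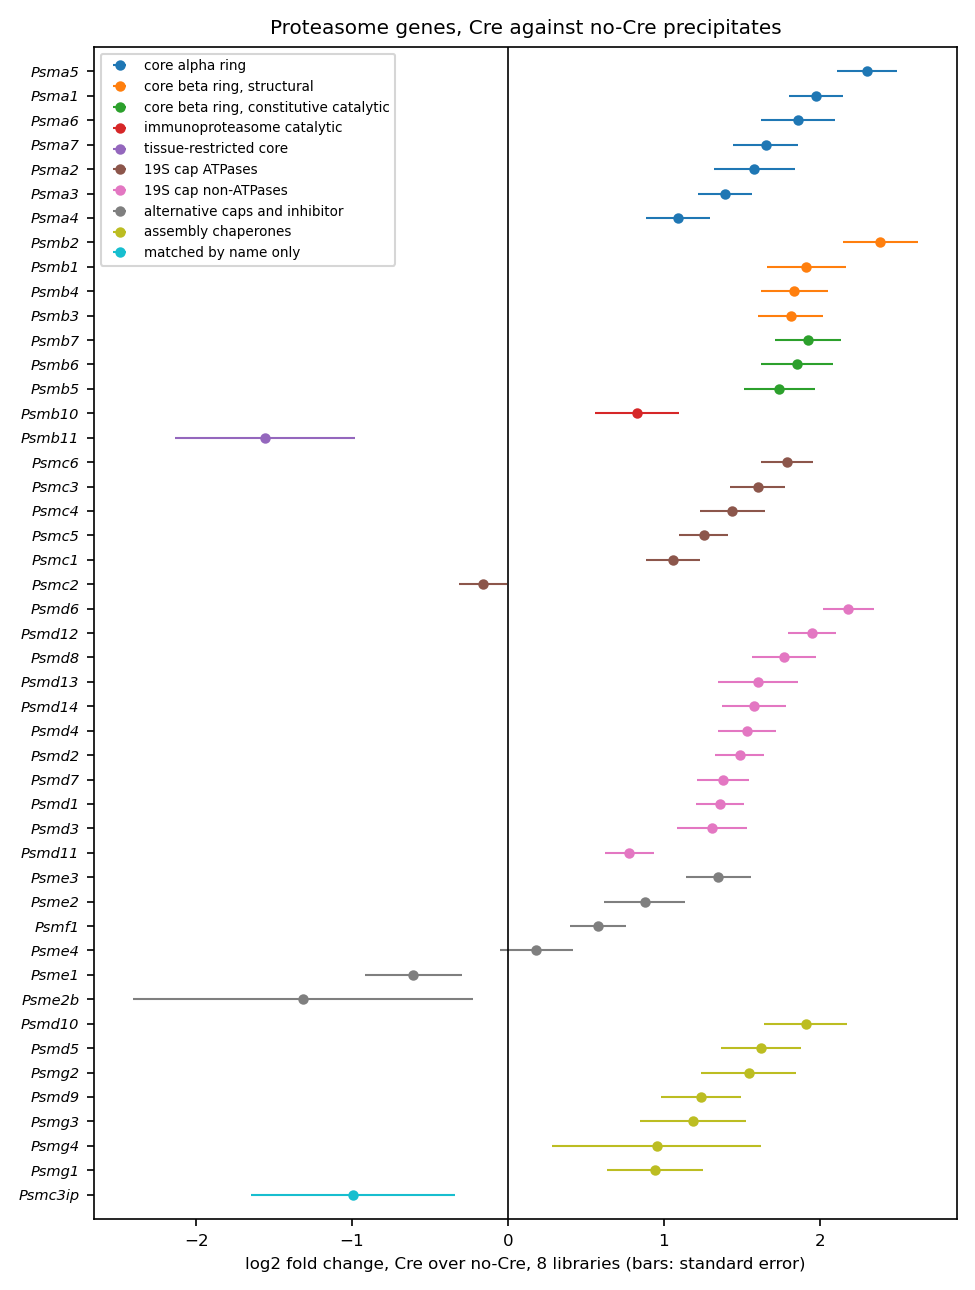
Fold change of the 47 proteasome genes tested, Cre over no-Cre, over all 8 libraries. The x axis is the log2 fold change, points are edgeR estimates coloured by role and bars are standard errors. All 14 constitutive core subunits lie to the right of 0, between 1.09 and 2.39, while Psmc2 among the cap ATPases lies at -0.16.

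The 7 alpha subunits form the outer rings that gate the barrel. All 7 were higher with Cre in each comparison, with log2 fold changes from 1.09 (Psma4) to 2.31 (Psma5) over all libraries. Psma5 had 121 and 98.7 CPM in the Cre crushed and 105 and 102 CPM in the Cre uncrushed libraries, against 16.9 and 18.95 CPM in the no-Cre crushed and 22.2 and 29.8 CPM in the no-Cre uncrushed libraries. The 4 Cre values lay close together and well clear of the 4 no-Cre values. Its log2 fold change was 2.31 ± 0.19 (SE; edgeR adjusted p = 1.38e-06, higher in 4 of 4 Cre libraries).

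The structural beta subunits Psmb1, Psmb2, Psmb3 and Psmb4 complete the inner rings without an active site. All 4 were higher with Cre in both cords, and Psmb2 had the smallest p of the 4 over all libraries. Psmb2 had 98.8 and 81.1 CPM in the Cre crushed and 98.6 and 108 CPM in the Cre uncrushed libraries, against 9.22 and 20.8 CPM in the no-Cre crushed and 19.1 and 26.4 CPM in the no-Cre uncrushed libraries. The no-Cre crushed library of animal 51 was the lowest. The log2 fold change of Psmb2 was 2.39 ± 0.24 (SE; edgeR adjusted p = 4.61e-06).

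The 3 constitutive active subunits were higher with Cre in each comparison. Psmb5, which carries the chymotrypsin-like activity, had 89.9 and 71.0 CPM in the Cre crushed and 109 and 87.2 CPM in the Cre uncrushed libraries, against 13.6 and 27.3 CPM in the no-Cre crushed and 37.0 and 32.8 CPM in the no-Cre uncrushed libraries. Psmb6, with the caspase-like activity, had 90.5 and 72.1 CPM in the Cre crushed and 94.1 and 87.7 CPM in the Cre uncrushed libraries, against 12.7 and 23.3 CPM in the no-Cre crushed and 37.7 and 26.1 CPM in the no-Cre uncrushed libraries. Psmb7, with the trypsin-like activity, had 197 and 140 CPM in the Cre crushed and 149 and 141 CPM in the Cre uncrushed libraries, against 29.3 and 50.7 CPM in the no-Cre crushed and 36.2 and 48.8 CPM in the no-Cre uncrushed libraries. For none of the 3 did the arms overlap, and the lowest value of each was again that of no-Cre crushed animal 51. Over all libraries the log2 fold changes were 1.74 ± 0.23, 1.85 ± 0.23 and 1.93 ± 0.21 for Psmb5, Psmb6 and Psmb7 (SE; edgeR adjusted p = 3.16e-05, 2.30e-05 and 8.78e-06).

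The immunoproteasome subunits were scarce in every library. Psmb8, the inducible counterpart of Psmb5, had 7 and 6 counts in the Cre crushed and 3 and 4 counts in the Cre uncrushed libraries, against 5 and 8 counts in the no-Cre crushed and 1 and 5 counts in the no-Cre uncrushed libraries. Psmb9, the counterpart of Psmb6, had 3 and 5 counts in the Cre crushed and 6 and 3 counts in the Cre uncrushed libraries, against 6 and 15 counts in the no-Cre crushed and 5 and 2 counts in the no-Cre uncrushed libraries. Scaled, Psmb8 ran from 0.389 to 0.474 CPM with Cre and from 0.389 to 1.33 CPM without, and Psmb9 from 0.189 to 0.779 CPM with Cre and from 0.533 to 2.49 CPM without. A count of 3 stood for 0.189 to 0.389 CPM in the Cre and 0.407 to 1.17 CPM in the no-Cre libraries, so these levels were at or near the limit of detection and the arms overlapped. Neither gene was tested. The annotated Psmb9 gene overlaps Tap1 on the opposite strand, and the strand setting of the counting is not known here.

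Psmb10, the counterpart of Psmb7, was the only immunoproteasome subunit that passed the filter. It had 7.26 and 8.05 CPM in the Cre crushed and 11.3 and 9.42 CPM in the Cre uncrushed libraries, against 3.80 and 5.32 CPM in the no-Cre crushed and 5.06 and 5.86 CPM in the no-Cre uncrushed libraries. The arms did not overlap. Psmb10 was called higher over all 8 libraries (log2 fold change 0.83 ± 0.27 (SE), edgeR adjusted p = 0.0179) but not in uncrushed cords (0.91 ± 0.39, adjusted p = 0.0809) or in crushed cords (0.75 ± 0.37, adjusted p = 0.122) alone.

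Each inducible subunit was also set against its constitutive counterpart within a library, per length, which does not depend on scaling between libraries. In TPM (transcript abundance corrected for length), Psmb10 made up 5.04 ± 1.36% of Psmb10 plus Psmb7 with Cre and 10.0 ± 1.09% without (SD, n = 4 each), with Cre values of 3.21 to 6.38% and no-Cre values of 8.63 to 11.2%. Psmb9 made up 0.657 ± 0.467% of Psmb9 plus Psmb6 with Cre and 6.93 ± 3.71% without, and Psmb8 0.313 ± 0.140% of Psmb8 plus Psmb5 with Cre and 1.81 ± 0.976% without (SD, n = 4 each). The Cre and no-Cre values did not overlap for Psmb10 and Psmb9 and overlapped for Psmb8. The constitutive counterparts in these shares were themselves higher with Cre. In TPM relative to the median core subunit, 66.9% of all genes tested lay below in all Cre libraries. A lower share with Cre is thus not read as particular to the inducible subunits. The shares of Psmb8 and Psmb9 rest on the few counts given above, and no test was made of any share.

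**Figure D2:**
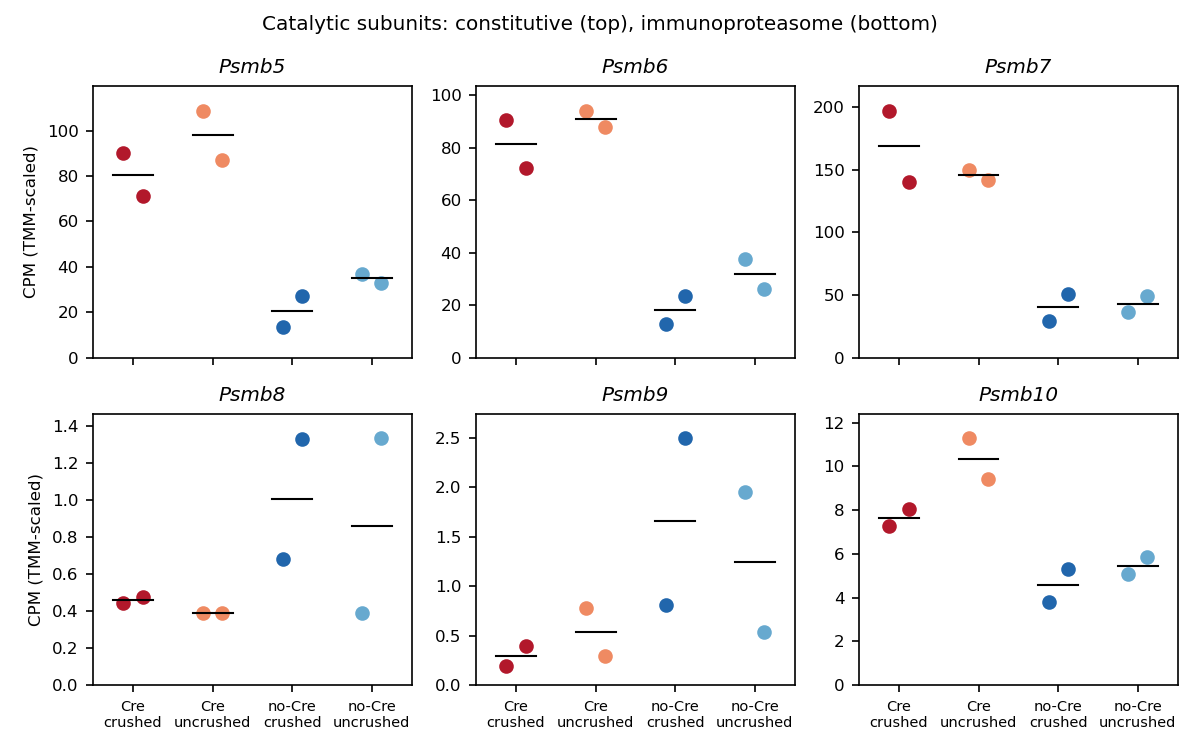
Levels of the catalytic subunits by library. The y axes are CPM on TMM-scaled library totals and start at 0, points are single animals (2 per group) and lines are group means. The constitutive subunits in the top row separate by Cre, while Psmb8 and Psmb9 stay under 2.5 CPM in every library.

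The tissue-restricted core genes were near 0. Psma8, an alpha subunit of the testis, had 0.379 to 0.649 CPM with Cre and 0 to 0.799 CPM without. Psmb11, a beta subunit of the thymus, had 0.631 and 0.868 CPM in the Cre crushed and 1.95 and 0.486 CPM in the Cre uncrushed libraries, against 1.76 and 2.66 CPM in the no-Cre crushed and 4.28 and 2.93 CPM in the no-Cre uncrushed libraries. It was the only member called lower with Cre over all 8 libraries (log2 fold change -1.56 ± 0.58 (SE), edgeR adjusted p = 0.0323), the arms overlapped, and the call was lost when any of 6 of the 8 single libraries was left out.

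Of the 17 subunits of the 19S cap that the name rule matched, 16 were higher with Cre in uncrushed cords, in crushed cords and over all libraries. The median log2 fold change over the 17 was 1.47 in uncrushed and 1.42 in crushed cords, beside 1.69 and 1.99 over the 14 constitutive core subunits. Psmc6, an ATPase of the unfolding ring, had 69.5 and 58.8 CPM in the Cre crushed and 61.8 and 62.3 CPM in the Cre uncrushed libraries, against 15.7 and 18.95 CPM in the no-Cre crushed and 18.3 and 20.3 CPM in the no-Cre uncrushed libraries. Its log2 fold change was 1.79 ± 0.17 (SE; edgeR adjusted p = 3.00e-06), with no overlap of the arms. Psmd6, a scaffold subunit of the lid, had 88.3 and 75.7 CPM in the Cre crushed and 70.0 and 70.2 CPM in the Cre uncrushed libraries, against 18.4 and 16.6 CPM in the no-Cre crushed and 15.2 and 16.5 CPM in the no-Cre uncrushed libraries. The values within each arm were close together, and its log2 fold change was 2.18 ± 0.16 (SE; edgeR adjusted p = 8.65e-07), the smallest adjusted p of any member. The other non-ATPases ran from 0.78 (Psmd11) to 1.95 (Psmd12, another lid subunit), and all 11 were called higher, Psmd14, the deubiquitinase of the lid, among them.

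The exception in the cap was Psmc2, an ATPase of the same ring, which was singled out after its values were seen. It had 121 and 123 CPM in the Cre crushed and 117 and 103 CPM in the Cre uncrushed libraries, against 141 and 125.2 CPM in the no-Cre crushed and 139 and 112 CPM in the no-Cre uncrushed libraries. The arms overlapped, and its log2 fold change was -0.19 ± 0.22 in uncrushed and -0.13 ± 0.22 in crushed cords (SE; edgeR adjusted p = 0.504 and 0.657). With library totals alone as the scaling it was 0.52 in uncrushed cords, where the median of all genes stood at 0.65.

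The deposited lengths of Psmc2 differed between the arms. Its effective length, which RSEM averages over a gene's transcripts by their estimated abundance, was 1726 to 1955 bases with Cre and 2587 to 2907 bases without. Annotation (GENCODE M21) gives the gene's 2 transcripts in the tables as a coding transcript of 1785 bases in 13 exons and a retained-intron transcript of 3466 bases in 2 exons. Read as a mean of these 2 lengths, the deposited length assigned 88.6 ± 11.7 CPM to the coding transcript with Cre and 24.5 ± 7.04 CPM without (SD, n = 4 each), a ratio of 3.61. The retained-intron transcript was assigned 27.4 ± 13.9 CPM with Cre and 105 ± 19.3 CPM without (SD, n = 4 each). Neither set of values overlapped between the arms, but the split is RSEM's estimate and was looked at after the gene's level was seen, so it was not tested. Effective lengths that did not overlap between the arms and differed by at least 1.2 times in the mean were found in 2 of the 47 members (4.26%, Psmc2 and Psme4) and in 5.35% of all genes tested.

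**Figure D3:**
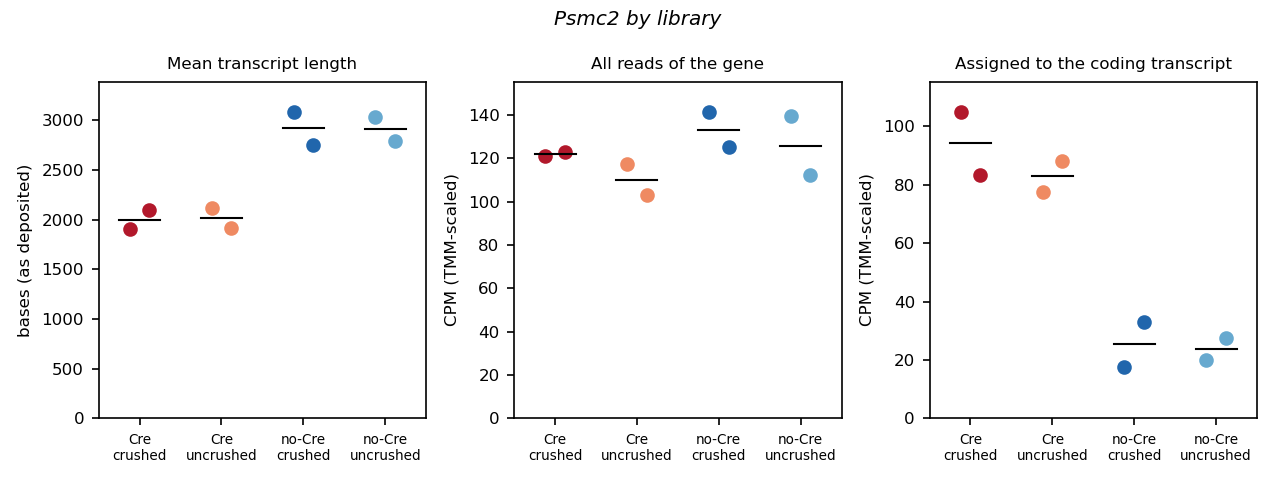
Psmc2 in each library. The left panel gives the deposited mean transcript length in bases, the middle panel the CPM of all reads of the gene and the right panel the CPM assigned to the coding transcript, with points for single animals, lines for group means and axes from 0. Length is lower with Cre, total CPM overlaps between the arms, and the coding part is 77.6 to 105 CPM with Cre and 17.8 to 33.1 CPM without.

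Of the 6 genes of the alternative caps and the inhibitor, 3 were called higher with Cre over all libraries (Psme2, Psme3 and Psmf1) and the others were not called. Their summed level was 166 to 198 CPM with Cre and 102 to 129 CPM without, with no overlap. Psme3, which forms the nuclear activator PA28-gamma, was higher with Cre in both cords. It had 81.1 and 65.0 CPM in the Cre crushed and 92.3 and 93.4 CPM in the Cre uncrushed libraries, against 18.98 and 37.1 CPM in the no-Cre crushed and 40.8 and 34.1 CPM in the no-Cre uncrushed libraries (log2 fold change 1.35 ± 0.21 (SE) over all libraries, edgeR adjusted p = 1.11e-04). Psme1, a subunit of the interferon-inducible activator, had 13.6 and 9.39 CPM in the Cre crushed and 8.05 and 6.22 CPM in the Cre uncrushed libraries, against 8.40 and 19.1 CPM in the no-Cre crushed and 11.3 and 17.1 CPM in the no-Cre uncrushed libraries, with overlapping arms and a log2 fold change of -0.61 ± 0.31 (SE; edgeR adjusted p = 0.109). Psme2, its partner subunit, ran from 8.57 to 13.6 CPM with Cre and from 4.67 to 6.98 CPM without, and was called higher over all libraries. Its near-identical copy Psme2b shares reads with it, so both values are uncertain.

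Psme4, the activator PA200, had 50.6 and 43.5 CPM in the Cre crushed and 34.3 and 41.4 CPM in the Cre uncrushed libraries, against 70.6 and 37.7 CPM in the no-Cre crushed and 22.2 and 26.9 CPM in the no-Cre uncrushed libraries. With TMM and all 8 libraries Psme4 was not called in any comparison with Cre. Its log2 fold change over all libraries was 0.18. Without each library in turn it ran from 0.09 to 0.52, the highest without no-Cre crushed animal 51. The effective length of Psme4 was 5243 to 5989 bases with Cre and 1215 to 3191 bases without. Psmf1, an inhibitor of the core, had 39.1 and 37.3 CPM in the Cre crushed and 31.0 and 33.5 CPM in the Cre uncrushed libraries, against 20.5 and 24.8 CPM in the no-Cre crushed and 21.0 and 28.2 CPM in the no-Cre uncrushed libraries. It was called higher in crushed cords (log2 fold change 0.76 ± 0.25 (SE), edgeR adjusted p = 0.0279) and not in uncrushed cords (0.38 ± 0.25, adjusted p = 0.244), and the interaction did not pass the test. The call in crushed cords was lost with library totals as the scaling (edgeR adjusted p = 0.0769), with totals that leave out mitochondrial rRNA (0.112), and when any of 3 crushed libraries was left out, namely Cre animal 35 (0.154), Cre animal 52 (0.0925) and no-Cre animal 51 (0.119). Psme1, Psme4 and Psmf1 were named after their values were seen.

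The assembly chaperones build the core and the base of the cap and are not part of the finished particle. Of the 7, 4 were higher with Cre in each cord (Psmd5, Psmd9, Psmd10 and Psmg2) and 6 over all libraries, and the median log2 fold change over all libraries was 1.24. Psmd10 (gankyrin), which escorts a cap ATPase, had 20.3 and 16.2 CPM in the Cre crushed and 15.6 and 15.7 CPM in the Cre uncrushed libraries, against 4.88 and 4.32 CPM in the no-Cre crushed and 6.22 and 2.93 CPM in the no-Cre uncrushed libraries (log2 fold change 1.91 ± 0.27 (SE), edgeR adjusted p = 6.13e-05). Psmg4, the member of this class that was not called, had 0.868 to 1.52 CPM with Cre and 0.266 to 0.997 CPM without. Psmc3ip, matched by name only, had 0.568 to 0.947 CPM with Cre and 0.665 to 3.46 CPM without and was not called.

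Within a library, levels of the subunits per length were compared to ask how even the particle's mRNAs were. The median TPM of the 17 cap subunits was 0.553 ± 0.019 of the median of the 14 core subunits with Cre and 0.677 ± 0.101 without (SD, n = 4 each). The Cre values ran from 0.527 to 0.574 and the no-Cre values from 0.581 to 0.819, so the arms did not overlap but came close. Psmc2 enters this median, and the relative levels below, with both of its transcripts. Its retained-intron form took 6.96 to 20.0% of its estimated transcripts with Cre and 57.7 to 77.3% without. The ratio was not computed with the coding form alone, so the separation is not shown for coding mRNA. Psmc5, a cap ATPase, had the highest TPM of the cap in each of the 8 libraries, and relative to the core median it ran from 1.88 to 2.06 with Cre and from 2.22 to 3.41 without. Relative to the core median, Psma5 and Psmb2 were above in all Cre libraries and Psma4, Psmc1, Psmc2, Psmc5 and Psmd11 below, when set against all no-Cre libraries, with no overlap. On this scale 1.12% of all genes tested were above in all Cre libraries and 66.9% below. The core subunits set this scale themselves, and nothing particular to these 7, or to the lower cap median with Cre, is read from it. Psmd11, a lid subunit, ran from 0.282 to 0.328 of the core median with Cre and from 0.435 to 0.816 without. The other 24 of the 31 subunits overlapped between the arms on this scale, and no test was made. The no-Cre ratios rest on fewer counts, since the members took 25715 to 54706 counts with Cre and 3377 to 7886 without.

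**Figure D4:**
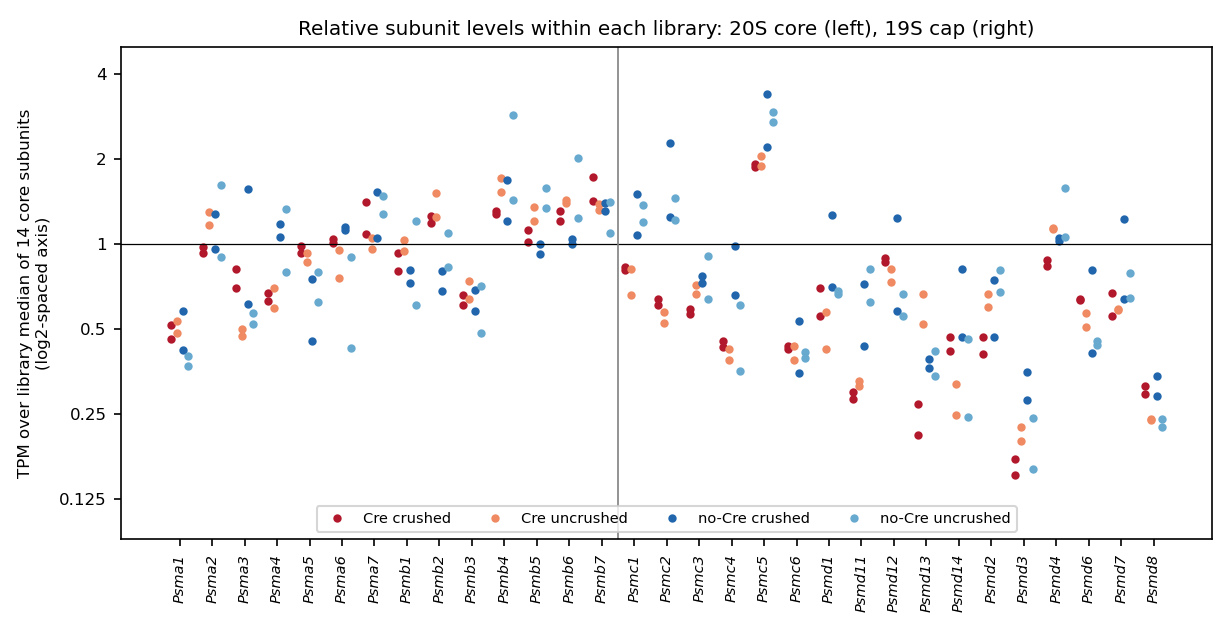
Subunit levels relative to the core within each library. The y axis is TPM divided by the library's median over the 14 constitutive core subunits, spaced by log2, with a point per library coloured by group. Psmc5 is the highest cap subunit throughout. The Cre points of Psmc1, Psmc2, Psmc5 and Psmd11 all lie below the no-Cre points, as on this scale do those of 66.9% of all genes tested. Psmc2 is shown for the whole gene, with its retained-intron transcript included.

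Genes that work with the proteasome were described by the same comparison over all 8 libraries. Of 16 partners (among them receptors, deubiquitinases, shuttle factors and the cap subunit Sem1), 15 were higher with Cre and Ecpas was not called, with a median log2 fold change of 1.34. Those with the smallest p were Txnl1 (1.84 ± 0.17, SE), Usp14, a deubiquitinase of the cap (1.89 ± 0.18), Ubqln1 (1.27 ± 0.15) and Ubqln2 (1.53 ± 0.19), shuttle factors that carry ubiquitinated proteins. Of 6 genes for ubiquitin and its E1 enzymes, 5 were higher, among them Ubb (2.59 ± 0.24), a ubiquitin precursor, and Uba6 (1.84 ± 0.19), an E1 enzyme. Of 8 genes of the p97 unfoldase system 7 were higher, led by Vcp, p97 itself (1.85 ± 0.19), and its cofactor Nsfl1c (1.65 ± 0.17). In uncrushed cords 6 of these 8 were called higher and 0 lower, against 20.6% and 21.9% of all genes. In crushed cords 7 were called higher and 1 lower (log2 fold change -0.68), against 21.6% and 21.3%. Errors of the list genes are SE, each gene given with a value passed edgeR's test, and 28.7% of all genes were called higher.

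Of 8 genes that control proteasome transcription, 4 were higher with Cre and 1 lower over all libraries, where 28.7% and 31.2% of all genes were called. In uncrushed cords these counts were again 4 and 1, where the shares over all genes were 20.6% and 21.9%. In crushed cords they were 1 and 1, where the shares were 21.6% and 21.3%. Nfe2l1, the transcription factor named above, was higher (0.95 ± 0.16), as were Ddi2, the protease that activates it (0.79 ± 0.17), and Ngly1, which removes its sugars (0.86 ± 0.20). Whether Nfe2l1 acted on the members was not tested. Nfe2l2, the related oxidative stress factor, was lower (-2.21 ± 0.26). Of 13 genes tested for MHC class I presentation and interferon response, 3 were higher and 5 lower, where 28.7% and 31.2% of all genes were called. Nothing about the list as a whole is read from these counts. H2-D1, a class I heavy chain, was higher (1.56 ± 0.20), and H2-K1, another, was lower (-1.63 ± 0.23). Irf8, a transcription factor of immune cells, was lower (-2.15 ± 0.64), in libraries where the microglia and macrophage markers were also lower. Tapbp, the peptide-loading chaperone tapasin, was higher (1.00 ± 0.22).

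No proteasome gene was called with crush. With Cre, 0 of the 47 members were higher and 0 lower in crushed cords than in uncrushed cords, where the shares over all genes were 0.0395% (higher) and 0.0329% (lower), and DESeq2 called 0 members. The median log2 fold change of the members was -0.07, against 0.03 over all genes. At an unadjusted p under 0.05 there were 4 members (8.51%), against 9.34% of all genes. Psma3, an alpha subunit, had 87.6 and 66.1 CPM in the Cre crushed and 47.5 and 47.8 CPM in the Cre uncrushed libraries, a log2 fold change of 0.69 ± 0.23 (SE; edgeR adjusted p = 0.389). Psmd14 had 65.7 and 62.9 CPM in the Cre crushed and 38.5 and 44.7 CPM in the Cre uncrushed libraries (0.63 ± 0.28 (SE), edgeR adjusted p = 0.524). Both were above in each crushed library, and a pair of cap subunits lay the other way. Psmd13, a lid subunit, had 45.5 and 37.1 CPM in the Cre crushed and 83.5 and 65.8 CPM in the Cre uncrushed libraries (-0.85 ± 0.33 (SE), edgeR adjusted p = 0.452). Psmd2, the cap scaffold that holds ubiquitin receptors, had 130 and 131 CPM in the Cre crushed and 211 and 171 CPM in the Cre uncrushed libraries (-0.55 ± 0.22 (SE), edgeR adjusted p = 0.464). These 4, chosen for their unadjusted p, failed the correction over all genes.

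Among the genes that work with the proteasome, 0 were called with crush in Cre cords, and the smallest p of each list was as follows. Ubxn7, a p97 cofactor, had a log2 fold change of -0.80 (edgeR adjusted p = 0.215). Ddi2 had -0.86 (edgeR adjusted p = 0.226) and Irf8 2.99 (adjusted p = 0.369). Sem1, a small cap subunit outside the name rule, had -1.08 (edgeR adjusted p = 0.451), and Ubb 0.44 (adjusted p = 0.734). For Ubxn7 the difference between the crush effects with and without Cre was -1.02 (edgeR adjusted p = 0.814).

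Without Cre, 0 members were called in either direction with crush (0.0197% of all genes higher and 0.0526% lower), DESeq2 called 0, and the median log2 fold change was -0.16 against -0.03 over all genes. At an unadjusted p under 0.05 there were 7 members (14.9%), against 12.8% of all genes. Psma3 was again above, with 33.1 and 27.9 CPM in the no-Cre crushed and 15.6 and 18.9 CPM in the no-Cre uncrushed libraries, as was Psme4, while Psma5, Psmb4, Psmb5, Psmb6 and Psmd2 were below. Under 3 other settings single members were called higher without Cre. These were Psma3 and Psme4 with library totals alone, the same pair with Psmd12 and Psmd14 with totals that leave out mitochondrial rRNA, and Psme4 with no filter on low counts. The scaling by totals alone moved the median of all genes by 0.96 in this comparison and that without mitochondrial rRNA by 0.65.

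The difference between the crush effects with and without Cre was called for 0 members and 0% of all genes, and 0 members had an unadjusted p under 0.05, against 5.97% of all genes. DESeq2 also called 0 members. With 2 mice in a group, a p that misses the threshold does not show that crush left these mRNAs unchanged.

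**Figure D5:**
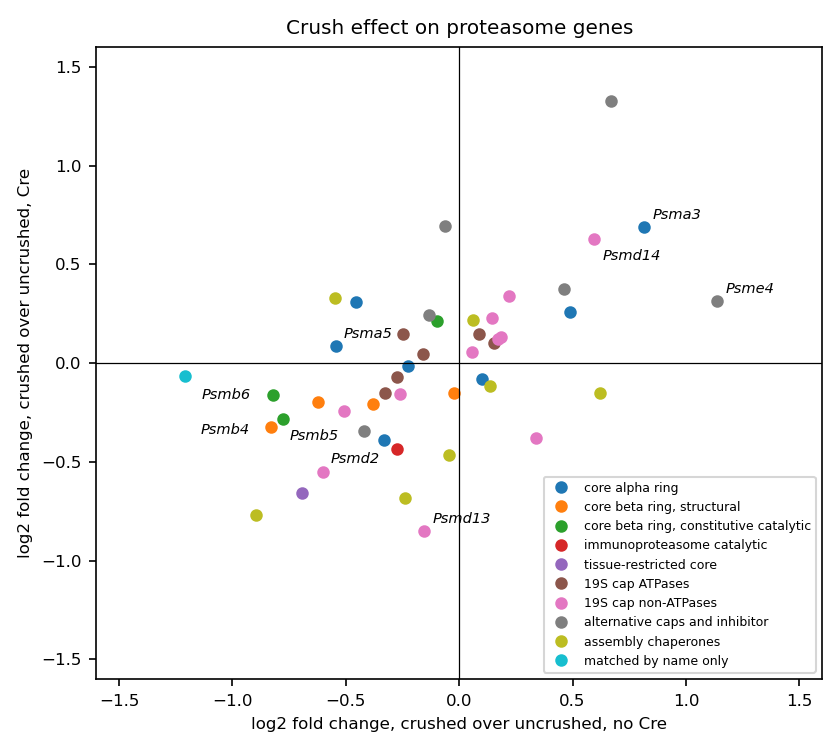
Crush effect on the 47 proteasome genes tested. The y axis is the log2 fold change of crushed over uncrushed cords with Cre and the x axis the same without Cre, with points coloured by role. No point passed the adjusted threshold on either axis, and the 9 labelled genes reached an unadjusted p under 0.05 with Cre (Psma3, Psmd14, Psmd13 and Psmd2) or without (Psma3, Psma5, Psmb4, Psmb5, Psmb6, Psmd2 and Psme4).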

How the data were processed

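Ribosome-associated mRNA was sequenced from 8 spinal cords, 2 per group. The authors made the deposited gene tables with Bowtie2 2.2.0 and RSEM 1.2.12, per the submitters' processing notes. The deposited expected counts estimate reads per gene and are not normalized, and they were rounded to whole numbers here. The deposited TPM, and FPKM as an alternative, were used for levels between genes, and the deposited lengths (type other, bases) for transcript use. Genome build, annotation and strand setting: not given in the sources used here. Symbols were matched for 37607 of 38924 identifiers (96.6%). The members, lists and rules were chosen with earlier results of these data known.

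The test was the quasi-likelihood test of edgeR 4.0.16 under R 4.3.3 (filterByExpr with a minimum count of 10 and a minimum total of 15, TMM, 1 mean per group, 4 residual degrees of freedom), with crush as a covariate over all 8 libraries. All tests were two-sided, with a threshold of 0.05 on p adjusted after Benjamini and Hochberg over all genes tested. SE is the size of the log2 value over the root of the F statistic. CPM uses TMM-scaled totals, and a count of 3 corresponds to 0.189 to 1.17 CPM, which covers counting error only. Values in every library were given for the 6 catalytic beta subunits and for the member with the smallest p in each role class. Psmc3ip, alone in the class matched by name only, is an exception and was given by range. For members under 1 CPM on average, values or ranges were given. The genes named from a list are up to 4 of those called with Cre over all libraries, by smallest p, and in the crush comparison the gene with the smallest p of each list. A gene that this rule would name is not reported here. Promoter windows and their coordinates are RefSeq's on GRCm38.p6, and transcript types are from GENCODE M21 by identifier. Of the 136 list genes 135 were found, and Paaf1 was not. The alternatives were DESeq2 1.42.0 (its test, and its size factors in edgeR), library totals with and without mitochondrial rRNA, no filter, only the groups compared, leaving out uncrushed animals 3 and 4, and leaving out each library. The code was tested on simulated counts.

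Of the 50 members, 13 had a fractional count in some library, which marks reads shared with other genes, and Psma3, Psmc2 and Psmd11 had one in all 8. In the GENCODE annotation 24 members overlap another gene. Mice of a group are separate animals, and p-values measure the spread between them.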

Additional observations from a re-analysis of the deposited data

How the results depend on the processing

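No paired analysis was possible because the groups share none of their animal numbers. Over the 7 alternatives other than single libraries, members called higher with Cre numbered 27 to 41 in uncrushed and 33 to 38 in crushed cords, and 40 over all libraries in each of the 6 that apply. The 27 came without uncrushed animals 3 and 4, where 12 core and 13 cap subunits were called and Psme3 (adjusted p = 0.0632, edgeR) and Psmd14 (0.0502) were not. Leaving out each library in turn gave 32 to 36 members higher in uncrushed cords (core 13 to 14, cap 14 to 16), 29 to 37 in crushed cords (core 13 to 14, cap 13 to 16) and 39 to 41 over all libraries (core 14 to 14, cap 16 to 16), with 0 to 0 called lower in each cord and 0 to 2 over all libraries. The fewest in crushed cords, 29, came without Cre crushed animal 35 or without no-Cre crushed animal 51. In the crush comparisons and the interaction these were 0 to 0. Members called lower over all libraries numbered 0 with library totals alone, with no filter and without uncrushed animals 3 and 4, and 2 (Psmb11 and Psme1) with totals without mitochondrial rRNA. Members called higher with crush without Cre numbered 2 with library totals alone (core 1), 4 with totals without mitochondrial rRNA (core 1, cap 2) and 1 with no filter. The cause was not tested.

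Library totals alone shifted the median of all genes (log2) by 0.68 in uncrushed and 0.14 in crushed cords, and then 4762 genes were called higher and 1465 lower in uncrushed cords, against 3137 and 3331 with TMM. Over the alternatives other than single libraries, the members' median lay 1.36 to 1.55 above that of all genes in uncrushed and 1.45 to 1.55 in crushed cords, and without each library in turn 1.27 to 1.58 and 1.30 to 1.82. With library totals alone Psmb10 (adjusted p = 0.0211, edgeR), Psme4 (0.0394) and Psmf1 (0.0463) were also called higher in uncrushed cords. The difference in the Psmb8 share, Cre minus no-Cre, was -1.50 percentage points in TPM and -3.10 with counts not divided by length. Without each library in turn the differences ran from -1.97 to -1.24 (Psmb8), -7.92 to -5.28 (Psmb9) and -5.43 to -4.36 (Psmb10). FPKM in place of TPM gave the same ratios within a library, to rounding. The low counts of Psmb8, Psmb9 and Psma8 set what can be said of them.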
